A study of Drosophila melanogaster with 30 samples.

Results

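The probes described here gave a ratio in whole male fly pupae on at least 7 of the 8 arrays that compared fruitless (fru) mutants with wild type, and gave no value on any of the 22 arrays of dissected central nervous system (CNS) or brain. They numbered 227 of the 15744 probes on the array, or 4.02% of the 5652 probes that had at least 7 whole-body values. The other 5425 of those probes had a value on at least 1 CNS or brain array and are the comparison set. They were selected on whether a deposited value was present on each of the 30 arrays, and the size and sign of a ratio played no part in the rule. All 227 entered the tests because the rule asks for more arrays than the tests do (6 of 8), so their presence among the 7051 probes tested is not a result. Of the 227, 115 had a value on all 8 whole-body arrays and 112 on 7.

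fru is a gene at the head of a male branch of the sex determination pathway in Drosophila melanogaster. Transcripts from its P1 promoter are spliced differently in males and females, and in males they encode FRUM, a family of zinc finger transcription factors needed in neurons for courtship behaviour. At 48 h after puparium formation (APF) the pupa is in the middle of metamorphosis, when larval tissues are replaced by adult epidermis, muscle, gut, fat body and reproductive organs while the nervous system is rewired. A whole pupa therefore holds RNA of many tissues that a dissected nervous system lacks.

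The whole-body experiment used males only, at 48 h APF, with 4 arrays for each of 2 allele pairs. Replicates 1 to 4 compared fru-440/fru-P14 males with Canton S males. Replicates 5 to 8 compared w; fru-w12/fru-ChaM5 males with w; Berlin males, so that mutants and controls of the second pair both carry w. Per the labels, RNA of a sample came from about 30 pooled pupae, mutant RNA carried the Cy5 dye on replicates 1, 2, 5 and 6 and the Cy3 dye on replicates 3, 4, 7 and 8, and the series' design text calls the samples biologically independent. The allele pairs differ in control strain as well as in fru alleles, and these cannot be told apart. The 22 CNS and brain arrays came from the other 5 experiments of the series: CNS of fru mutant and control males of the same 2 allele pairs at 48 h APF, CNS of Canton S males and females at 48 h APF, and RNA interference. In the last, fru P1-GAL4; uas-EcRA RNAi males, in which cells that use the fru P1 driver express RNA interference against EcR-A, an ecdysone receptor isoform, were set against fru P1-GAL4; + males at 0 h APF, at 48 h APF and as adults of 0 to 24 h, with brain named as the tissue at the later times. Whole-body cDNA was labelled directly whereas CNS RNA was amplified first, so tissue and labelling cannot be told apart in what counts as measured. In bulk samples, fewer cells of a type and less RNA per cell cannot be told apart either.

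The probe IDs are positions (a number from 1 to 41, a row letter and a column), and the files do not pair them with genes. No gene, gene function or sequence can therefore be given for any of the 227 probes, and the whole-body and CNS labels could not be checked against marker genes. The labels do not state which sample a positive ratio favours. Signs below are those of the deposited log2 ratios, and fold is used for size alone. The ratios were read as already turned to 1 direction within the experiment, which is an assumption here. Of the 227 probes 77 (33.9%) had 1 sign on every array of the first pair with a value and 75 (33.0%) on every array of the second. Over all probes tested these shares were similar, at 36.4% and 33.5%. Everything below rests on that assumption. With the ratios taken as Cy5 over Cy3, limma called 0 of the 227 probes in either pair or for the difference (22 and 38 in the pairs and 6 for the difference at an unadjusted p under 0.05). Of all 7051 probes tested it then called 0 and 4 in the pairs and 0 for the difference (547, 1103 and 166 at an unadjusted p under 0.05), so the loss was not particular to the 227. Precision is limited by the number of arrays, and spot intensities were not used here.

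The number of probes with a value differed widely between arrays. It lay between 5729 and 11533 on the whole-body arrays (median 8386.5) and between 3934 and 10598 on the CNS and brain arrays (median 6710.5). Among the 227 probes the missing value was most often that of replicate 3, which lacked 39 of them, and of replicate 4, which lacked 21. Replicate 6 lacked 2, replicate 7 lacked 5, replicate 2 lacked 7, replicate 1 lacked 9, replicate 8 lacked 11 and replicate 5 lacked 18. The part of the missing values in the results was not tested.

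On single arrays the 227 probes were centred close to 0, with a larger standard deviation (SD) than the comparison probes. Their median log2 ratio was 0.03, 0.10, 0.09 and 0.04 on replicates 1 to 4 and -0.12, -0.02, -0.04 and -0.05 on replicates 5 to 8. It was thus above 0 on each array of the fru-440/fru-P14 pair and below 0 on each array of the fru-w12/fru-ChaM5 pair. The comparison probes had medians between -0.01 and 0.02 on replicates 1 to 4 and between -0.04 and 0.03 on replicates 5 to 8. The SD over the 227 probes lay between 0.436 on replicate 6 and 0.623 on replicate 7, against 0.424 and 0.546 over the comparison probes on the same arrays. It was the larger of both on all 8 arrays. The lowest of the 227 ratios on replicates 2, 4, 5, 6 and 7 (-4.40, -4.67, -5.33, -3.23 and -2.09) all came from 1 probe, DAC039C15. It also gave the highest ratio on replicate 3 (2.49). The SD is sensitive to such values and was not computed without that probe. The middle of the 227 ratios, between the quartiles, ran from -0.25 to 0.24 on replicate 1 and from -0.43 to 0.21 on replicate 5, the array with the widest such span. That span was wider than among the comparison probes on replicates 1 to 4 and narrower on replicates 5 to 8. Ratios beyond 1 log2 unit were most frequent on replicate 7, where 23 of the 227 probes (10.4% of those with a value) passed that size, against 6.02% of the comparison probes. These shifts were not tested, since probes of 1 array are not replicates.

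The first comparison asked which of these probes differed between fru-440/fru-P14 and Canton S males. In limma, with an effect for each allele pair and a shared dye coefficient fitted over all 7051 probes, 12 of the 227 (5.29%) had an adjusted p under 0.05, of which 9 had a positive ratio and 3 a negative one. Over all probes tested 6.42% were called (3.53% positive and 2.89% negative), and 399 of the 5425 comparison probes were (7.35%). The share among the 227 thus lay near the background in this fit and is not a result about them. Their median effect was 0.04 against 0.00 over the comparison probes, and their median effect size was 0.154 against 0.145. An effect beyond 1 log2 unit was seen for 4 of the 227 (1.76%), against 57 comparison probes (1.05%). The count of 12 depended on single arrays of the pair, with 7 calls without replicate 2, 5 without replicate 3 and 7 without replicate 4.

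DAC007A01 had the largest called ratio of the pair. Its log2 ratio was 2.34, 3.73 and 1.00 on replicates 1, 2 and 4 of the fru-440/fru-P14 pair, with no value on replicate 3, against -0.59, -0.03, -0.59 and -0.38 on replicates 5 to 8 of the fru-w12/fru-ChaM5 pair. The pairs did not overlap, and its spread within the first pair was wide. The 2 arrays with mutant RNA in Cy5 stood above the 1 in Cy3, with a gap between orientations of 2.04, against 0.17 in the second pair. The fitted ratio was 2.20 ± 0.326 (SE), a size of 4.60-fold, with limma's adjusted p = 0.0046.

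DAC008A18 had the smallest adjusted p of all 227 probes in either pair. It stood at 1.70, 1.49 and 1.56 on replicates 2 to 4 and at 0.26, 0.14, -0.17 and -0.14 on replicates 5 to 8. The 3 high arrays lay close together, cover both dye orientations and do not overlap the other pair. For fru-440/fru-P14 it was fitted at 1.63 ± 0.105 (SE), 3.10-fold in size (limma's adjusted p = 4.85e-05), and for fru-w12/fru-ChaM5 at 0.02 ± 0.089 (SE).

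DAC020G14 went the other way. It read -1.64, -2.28, -1.60 and -0.80 on replicates 1 to 4 and -0.07, -0.17, -0.36 and 0.33 on replicates 5 to 8. All 4 arrays of the fru-440/fru-P14 pair lay below all 4 of the other pair. The fitted ratio was -1.58 ± 0.175 (SE), 2.99-fold in size, with limma's adjusted p = 0.000853.

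The other named calls of this pair were smaller. DAC004I01 had 1.09, 0.97, 0.60 and 0.82 on replicates 1 to 4 and 0.30, -0.42 and -0.14 on replicates 6 to 8, and was fitted at 0.87 ± 0.0997 (SE; limma's adjusted p = 0.00156). DAC027L16 had 0.99, 1.38, 0.39 and 0.46 on replicates 1 to 4, with the 2 arrays of mutant RNA in Cy5 above the 2 in Cy3, and was fitted at 0.81 ± 0.13 (SE; limma's adjusted p = 0.00535). DAC031J23 had 0.44, 0.96, 1.12 and 0.71 on replicates 1 to 4 but -0.25, 0.48, 0.87 and -0.38 on replicates 5 to 8, so its pairs overlapped. Its call (0.81 ± 0.193 SE, limma's adjusted p = 0.0349) was lost without any 1 of replicates 1 to 4, without the dye coefficient and with a dye coefficient for each pair.

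The second comparison set fru-w12/fru-ChaM5 males against w; Berlin males. Here 53 of the 227 probes (23.3%) had a limma adjusted p under 0.05, of which 20 had a positive ratio and 33 a negative one. Over all probes tested 23.2% were called (9.28% positive and 13.9% negative), and 1372 of the comparison probes were (25.3%), so the 227 again matched the background. Their median effect was -0.03 against 0.03 over the comparison probes, and the median effect size 0.216 against 0.207. An effect beyond 1 log2 unit was seen for 5 of the 227 (2.2%), against 105 comparison probes (1.94%). Without a dye coefficient 26 were called, 5 positive and 21 negative, and fitted alone the pair gave 26.

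The largest called ratios of this pair were mostly negative. DAC015A22 had -1.48, -0.58, -1.68 and -1.17 on replicates 5 to 8, against 0.13, -0.37, -0.64 and -0.46 on replicates 1 to 4. Its lowest values were those of the fru-w12/fru-ChaM5 pair, but the pairs overlapped at replicates 6 and 3. The ratio was -1.23 ± 0.152 (SE), 2.34-fold in size, with limma's adjusted p = 0.000957. DAC022J08 had -1.17, -0.28, -2.002 and -1.27 on replicates 5 to 8 and 1.00, 0.58, 0.13 and -0.11 on replicates 1 to 4, with no overlap. It was fitted at -1.18 ± 0.161 (SE; limma's adjusted p = 0.0014).

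DAC021E08 had -0.74, -1.63 and -1.57 on replicates 6 to 8 and was fitted at -1.15 ± 0.134 (SE; limma's adjusted p = 0.000984), while its values on replicates 1 to 4 (0.39, 0.11, -1.07 and -0.53) had both signs. DAC008N11 had -1.46, -0.65, -0.22 and -2.11 on replicates 5 to 8, the widest spread among these calls. Its ratio of -1.11 ± 0.256 (SE; limma's adjusted p = 0.0146) stood at -0.70 without replicate 8, and the call was lost without replicate 5 and with the pair fitted alone. DAC030J08 had -0.78, -0.48 and -1.11 on replicates 5 to 7 and was fitted at -0.86 ± 0.15 (SE; limma's adjusted p = 0.00464).

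DAC004M13 was the positive call among the 6 largest with 1 sign on every array of the pair. It had 0.37, 0.59, 1.05 and 1.31 on replicates 5 to 8, higher on the 2 arrays with mutant RNA in Cy3, and -0.37, 0.68, 0.15 and -0.16 on replicates 1 to 4. The fitted ratio was 0.83 ± 0.179 (SE), with limma's adjusted p = 0.00917. DAC013P14, named after its values were seen, was called at a slightly larger 0.85 ± 0.183 (SE; limma's adjusted p = 0.0109) with both signs, at -0.57, -0.43, 1.95 and 2.47 on replicates 5 to 8. Its 2 arrays with mutant RNA in Cy5 were negative and its 2 in Cy3 positive.

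Few of the 227 probes were called in both allele pairs. Of the 62 called in either, 9 were called in the fru-440/fru-P14 pair alone, 50 in the fru-w12/fru-ChaM5 pair alone and 3 (1.32%) in both. Over all 7051 probes tested 1873 were called in either, 236 in the first pair alone, 1420 in the second alone and 217 (3.08%) in both. All 3 had opposite signs in the pairs, and limma called 0 with the same sign in both (5 at an unadjusted p under 0.05, against 17 with opposite signs). Among the comparison probes 60 of the 199 called in both had the same sign, as had 68 of the 217 among all probes tested. A count of 3 is too small to set against these shares, so the lack of same-sign calls is not a result about the 227. At the level of fitted values 99 of the 227 (43.6%) had the same sign in both pairs, against 39.0% of the comparison probes. Across the 227 probes Pearson's r between the effects of both pairs was 0.084 and Spearman's rho -0.215, which differ in sign. The uncalled probe DAC039C15 had the lowest effect of the 227 in both pairs (-1.77 and -3.27). Pearson's r is sensitive to such a probe and was not computed without it. Over the 5425 comparison probes r was -0.128 and rho -0.253. Probes are not independent replicates, and the probes of a pair share its 4 arrays. A value of 1 sign on every whole-body array was found for 3 of the 227 (1.32%), against 206 comparison probes (3.8%).

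The 3 probes called with opposite signs were DAC027L16, DAC016N22 and DAC039G03. DAC027L16, fitted at 0.81 in the first pair, had -0.42, -0.54, -0.38 and -0.47 on replicates 5 to 8, with a fit of -0.46 ± 0.13 (SE; limma's adjusted p = 0.031). DAC016N22 had 0.28, 0.03, 0.61 and 0.58 on replicates 1 to 4, against -0.56, -0.60, -0.41 and -0.34 on replicates 5 to 8. It was fitted at 0.38 ± 0.09 and -0.47 ± 0.09 (SE), with limma's adjusted p of 0.034 and 0.00528. DAC039G03 had 0.23, 0.29, 0.43 and 0.62 on replicates 1 to 4, against -0.54, -1.01, -0.33 and -0.29 on replicates 5 to 8, and was fitted at 0.39 ± 0.101 and -0.54 ± 0.101 (SE; limma's adjusted p = 0.0485 and 0.00499). In each of these 3 probes every array of the first pair was positive and every array of the second negative. Values of 1 sign within each pair and opposite between the pairs, in either direction, were found for 23 of the 227 (10.1%). Among all 7051 probes tested 744 had this pattern (10.6%), so it is not particular to the 227. The calls of DAC016N22 and DAC039G03 in the first pair were lost without a dye coefficient. That of DAC016N22 was also lost without replicate 1, 3 or 4, and that of DAC039G03 without any 1 of replicates 1 to 4, with a dye coefficient for each pair and after centring. The call of DAC027L16 in the second pair was lost without a dye coefficient, with the pair fitted alone, after scaling and without replicate 5 or 6.

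The difference between the pairs (fru-440/fru-P14 minus fru-w12/fru-ChaM5) was tested as its own coefficient. Of the 227 probes 50 had a limma adjusted p under 0.05, 34 with a positive and 16 with a negative difference. Over all probes tested 20.7% were called (13.2% positive and 7.43% negative), and 1262 comparison probes were (23.3%). Of the 50, 33 were also called in the fru-w12/fru-ChaM5 pair alone, 6 in the fru-440/fru-P14 pair alone, 3 in both and 8 in neither. Over all probes tested, 893 of the 1458 called differences were also called in the fru-w12/fru-ChaM5 pair alone. Another 161 were called in the fru-440/fru-P14 pair alone and 247 in neither. The breakdown among the 227 was similar and is not a result about them. The median difference over the 227 was 0.08 against -0.05 over the comparison probes, and its median size 0.319 against 0.291. A difference beyond 1 log2 unit was seen for 10 of the 227 (4.41%), against 268 comparison probes (4.94%). In none of these 3 tests were 157 of the 227 called (69.2%), near the 4931 of all 7051 probes tested (69.9%).

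The 6 largest called differences were those of DAC007A01 (2.60), DAC008A18 (1.61), DAC022J08 (1.58), DAC020G14 (-1.51), DAC027L16 (1.26) and DAC018L02 (1.20). DAC018L02 had 0.33, 0.21, 0.66 and 0.31 on replicates 1 to 4, against -0.59, -1.48 and -0.55 on replicates 5, 6 and 8. Its groups did not overlap. It was fitted at 0.38 in the first pair and -0.82 in the second, with limma's adjusted p = 0.00621 for the difference. For DAC008N11, DAC030J08, DAC031J23 and DAC004M13 the difference did not pass the threshold (limma's adjusted p = 0.123, 0.156, 0.132 and 0.0586), so a call in 1 pair alone does not show that their pairs differ.

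Size alone did not make a call. DAC039C15 had the widest range of the 227 probes, at -0.49, -4.40, 2.49 and -4.67 on replicates 1 to 4 and -5.33, -3.23 and -2.09 on replicates 5 to 7. Replicate 3 lay on the opposite side of 0 from the other 6 arrays. It was fitted at -1.77 ± 0.985 and -3.27 ± 1.17 (SE), with limma's adjusted p = 0.346 and 0.0711. DAC039M23, next in range, ran from -2.49 on replicate 1 to 1.83 on replicate 3 and was not called. At the other end, DAC036K20 and DAC004G17 had the smallest mean absolute ratio among probes with 8 values, and DAC036K20 lay between -0.22 and 0.24 on all 8 arrays. The median residual SD was 0.241 over the 227 probes, against 0.216 over the comparison probes and 0.222 over all probes tested. The median SE of the 227 was also larger than that of the comparison probes in both pairs (0.126 against 0.116, and 0.122 against 0.113). It was 0.114 in both pairs over the 115 probes with 8 values, and 0.130 and 0.127 over the 112 with 7. Of the 5425 comparison probes 3448 had 8 values, and their SE was not computed by number of values.

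The 3 probes whose values were most like those of DAC008A18 were DAC023J11 (Pearson's r = 0.985 over 7 arrays), DAC023H06 (r = 0.949 over 6) and DAC017J05 (r = 0.943 over 6). These values describe the likeness and carry no test, because the 3 were picked for it. DAC023J11 had 0.49, 0.22 and 0.47 on replicates 2 to 4, against -0.27, -0.53, -0.62 and -0.70 on replicates 5 to 8. Its values were thus above 0 in the first pair but lay below 0 in the second, where DAC008A18 lay near 0. Unlike DAC008A18, DAC023J11 was not called in the first pair (0.43, limma's adjusted p = 0.058) but was called in the second (-0.53, limma's adjusted p = 0.00532). DAC017J05 had 0.27, 0.37, 0.44 and 0.52 on replicates 1 to 4 and -0.07, 0.04 and -0.03 on replicates 6 to 8. DAC023H06 had -0.12, 0.23 and 0.18 on replicates 1, 3 and 4, against -0.30, -0.40, -0.26 and -0.36 on replicates 5 to 8. It was fitted at 0.07 in the first pair (limma's adjusted p = 0.768), and its difference was not called (limma's adjusted p = 0.0768).

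Within the 227 probes, arrays of the same pair and dye orientation resembled each other more than arrays of the same pair and opposite orientation. Over the 115 probes with 8 values Pearson's r was 0.518 for replicates 1 and 2, 0.674 for 3 and 4, 0.578 for 5 and 6 and 0.617 for 7 and 8. Between orientations it was -0.101, -0.0299, 0.284 and 0.295 in the fru-440/fru-P14 pair (replicates 1 with 3, 1 with 4, 2 with 3 and 2 with 4). In the fru-w12/fru-ChaM5 pair it was 0.353, 0.0802, 0.46 and 0.276 (replicates 5 with 7, 5 with 8, 6 with 7 and 6 with 8). Replicate 1 was thus unrelated to replicates 3 and 4 across these probes, whereas over 3448 comparison probes with 8 values it correlated with them at 0.21 and 0.291. These correlations are across probes of shared arrays. The gap between the orientations correlated between the pairs (r = 0.598 over the 227 probes and 0.64 over the comparison probes). The dye coefficient takes up the shared gap, so SEs and p-values do not measure it.

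The share of calls did not simply grow as a probe was measured on fewer CNS and brain arrays. For the fru-w12/fru-ChaM5 pair it was 23.3% of the 227 probes with no CNS value, 32.9% of 167 probes with 1, 44.5% of 604 probes with 2 to 5 and 40.4% of 886 probes with 6 to 11. It was 28.6% of 1047 probes with 12 to 17, 16.9% of 1467 with 18 to 21 and 11.4% of 1254 with all 22. The largest share thus belonged to probes with 2 to 5 CNS values, and the 227 stood between those with 12 to 17 and those with 18 to 21. The difference between the pairs had the same shape, with 50 calls among the 227 probes and shares of 33.5% at 1 value, 45.4% at 2 to 5, 35.6% at 6 to 11, 23.4% at 12 to 17, 15.4% at 18 to 21 and 11.6% at 22. In the fru-440/fru-P14 pair the share was 5.29% of the 227, 7.78% at 1 value, 11.6% at 2 to 5, 9.82% at 6 to 11, 8.4% at 12 to 17, 5.59% at 18 to 21 and 4.7% at 22.

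The direction changed along the same axis. The median difference between the pairs was 0.08 over the 227 probes, 0.36 at 1 CNS value, 0.41 at 2 to 5, 0.12 at 6 to 11 and -0.07 at 12 to 17. It was -0.11 at 18 to 21 and -0.13 at all 22. In the fru-w12/fru-ChaM5 pair the median effect was -0.03 over the 227 probes, -0.26 at 2 to 5 values and 0.08 at all 22, and in the fru-440/fru-P14 pair it was 0.04, 0.13 and -0.04 at the same points. At 1 value 49 of the 56 called differences were positive and at 22 values 104 of the 146 were negative, while among the 227 probes 34 of 50 were positive. These are counts over probes that share the 8 arrays and were not tested against each other.

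The threshold of the rule lies in this range. Just outside it, the 167 probes with 1 CNS value had a median effect of 0.13 for fru-440/fru-P14 and -0.22 for fru-w12/fru-ChaM5, and 48 of their 55 calls in the second pair were negative. For 129 of them the single value came from the 3 CNS arrays of the fru-w12/fru-ChaM5 pair. For the rest it came from the sex comparison (13), the fru-440/fru-P14 CNS arrays (11), or the RNA interference arrays of adults (9), of 0 h (4) or of 48 h (1). The CNS arrays of the fru-w12/fru-ChaM5 pair held the most values of any CNS group, between 8418 and 10598. On the other side of the rule, 121 probes had no CNS value and 6 whole-body values, and 4 of them (3.31%) were called in the first pair, 28 (23.1%) in the second and 16 (13.2%) for the difference.

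The 227 probes came from 40 of the 41 numbers that open the IDs, with a median of 5 probes a number and at most 16, on number 24. As a share of the probes with at least 7 whole-body values on the same number, which was 4.02% in all, they were most frequent on 41, with 9 of 47 (19.1%). Next came 22 with 11 of 113 (9.73%) and 4 with 12 of 147 (8.16%), and the lowest share was 0.73%. Of the 9 probes on 41, limma called 0 for fru-440/fru-P14, 0 for the difference and 1 for fru-w12/fru-ChaM5, with 0, 1 and 2 at an unadjusted p under 0.05. The counts are small, against 6.42%, 20.7% and 23.2% of all probes tested.

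Position by row and column was uneven. Row A held 24 of 342 eligible probes (7.02%) and row D 1 of 284 (0.352%). The letters D, H, L and P, which recur at intervals of 4 rows, together held 25 of 1137 (2.2%), against 69 of 1351 (5.11%) for A, E, I and M, 63 of 1684 (3.74%) for B, F, J and N and 70 of 1480 (4.73%) for C, G, K and O. Columns 7 and 19 had 2 each (1.03% and 1.0%), whereas columns 12 and 1 had 19 of 260 (7.31%) and 16 of 225 (7.11%). The layout of the array was not used here, and the part of position in these results was not tested.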

How the data were processed

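The authors' deposited table gave 1 value per probe and array. The authors' values on 27 arrays looked like normalized log2 ratios. On the other 3, CNS arrays of RNA interference at 48 h, the deposited values were a score of unknown scale, of which only presence was used. The submitters' processing notes name limma without a version. How background was corrected, how arrays were normalized and why cells are missing is not stated there or in the labels. The labels name rescans and rewashes of some whole-body arrays.

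From these values, 32 control spots were left out and 1903 probes had no value. Probes with a value on at least 6 of 8 whole-body arrays (7051) were tested with lmFit and eBayes of limma 3.58.1 (R 4.3.3). Tests were two-sided, with p-values adjusted over all 7051 by Benjamini-Hochberg and a threshold of 0.05. The model had 1 coefficient per allele pair, or 1 pair and the difference, plus a dye coefficient; arrays without a value were dropped for that probe. The fit was tested on simulated data. Named probes were the 6 largest calls of 1 sign per pair, the 6 largest called differences, calls in both pairs, the 2 widest ranges, the 2 smallest mean sizes and the 3 probes most like the best call. Alternatives covered the dye term, the pair fitted alone, ratios read as Cy5 over Cy3, centring, scaling, a robust fit, other filters and member rules, and each replicate left out. The marker lists drawn up could not be applied, because the files do not pair probes with genes. The probes, rule and lists were chosen with earlier results of these data known. No batch beyond allele pair and dye orientation was used.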

Additional observations from a re-analysis of the deposited data

Results flagged for a closer look

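The difference between the allele pairs passed limma's threshold for 20.7% of all 7051 probes tested and for 23.3% of the comparison probes. The share among the 227 lay between these shares, so their count is not a result about them. The difference passed for 50 of the 227 probes. Among the named ones it was 2.60 for DAC007A01, 1.61 for DAC008A18, 1.58 for DAC022J08, 1.26 for DAC027L16, 1.20 for DAC018L02, 0.96 for DAC023J11, 0.93 for DAC039G03, 0.89 for DAC015A22, 0.89 for DAC004I01, 0.88 for DAC021E08, 0.85 for DAC016N22, 0.44 for DAC017J05 and -1.51 for DAC020G14, on the log2 scale as fru-440/fru-P14 minus fru-w12/fru-ChaM5. The difference of DAC021E08 lost its call without a dye coefficient. With the pairs differing in alleles and control strain, these cannot be told apart.

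DAC004G17 had 0.41 on replicate 7 of the fru-w12/fru-ChaM5 pair, against -0.000624, -0.05 and -0.08 on replicates 5, 6 and 8, and its gap to the nearest value was 0.836 of the range, past Dixon's limit of 0.829 for 4 values. It was the only such sample among 38 groups of named probes and array summaries. Over all 342 groups of 4 values of the 227 probes 21 passed (6.14%), where chance flags about 5%.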

How the results depend on the processing

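Each ratio sets mutant against wild type on the same array. Between the allele pairs no paired analysis was possible, because the 2 whole-body groups share no replicate number. In the fru-440/fru-P14 pair the 12 calls became 5 without a dye coefficient, 21 with the pair fitted alone, 27 after scaling the arrays to one spread, 7 among probes with 8 values, 6 under a member rule of 8 of 8 arrays and 25 with up to 1 CNS value allowed, and ranged from 5 to 18 with 1 replicate left out. The 53 calls of the fru-w12/fru-ChaM5 pair became 26 without a dye coefficient, 26 with the pair fitted alone, 27 under the rule of 8 of 8, 81 under 6 of 8 and 108 with up to 1 CNS value, and ranged from 44 to 57 with 1 replicate left out. The 50 called differences became 25, 28 and 106 without a dye coefficient, under the rule of 8 of 8 and with up to 1 CNS value, and ranged from 36 to 53 with 1 replicate left out. The rules change the number of probes counted (115, 348 and 394). Over all probes the 453 calls of the first pair became 204 without a dye coefficient, 725 with the pair fitted alone and 997 after scaling, and 219 to 253 without 1 of replicates 1 to 4. The 1637 of the second became 864, 871 with the pair alone and 1091 without replicate 7, and the 1458 differences 793, with 966 and 962 without replicates 1 and 4. Not all of these fits tested the same 7051 probes. With a pair fitted alone 6394 were tested in the first pair and 9699 in the second. Without replicates 1, 2, 3, 4 and 7 in turn the number tested was 5876, 5975, 6570, 6331 and 5706. These counts therefore also reflect how many probes were tested. Of the 12 calls 5 remained without a dye coefficient, of the 53 calls 26 and of the 50 differences 25. The cause was not tested.

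Read as Cy5 over Cy3, the ratios gave 0 of the 227 probes called in limma in either pair or for the difference, with 22, 38 and 6 at an unadjusted p under 0.05. The same reading gave 0, 4 and 0 calls over all 7051 probes tested, with 547, 1103 and 166 at an unadjusted p under 0.05. Signs then turned for DAC008A18 (-0.23 in the first pair and -0.41 for the difference), DAC031J23 (-0.11), DAC016N22 (-0.22, difference -0.12) and DAC039G03 (-0.13) in the first pair. In the second pair they turned for DAC015A22 (0.20), DAC022J08 (0.46, difference -0.067), DAC021E08 (0.61, difference -0.084), DAC008N11 (0.056), DAC030J08 (0.15) and DAC004M13 (-0.35), and so did the difference of DAC004I01 (-0.30). By construction this reading turns the sign of the 4 arrays with mutant RNA in Cy3.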
